A study of Mus musculus with 4 samples.

Results

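Myeloid C-type lectin receptors are surface proteins of macrophages, monocytes, neutrophils and dendritic cells that bind sugars, lipids and material from damaged cells. The list held 10 genes chosen by name, *Clec4a1*, *Clec4a2*, *Clec4a3*, *Clec4d*, *Clec4e*, *Clec4n*, *Clec5a*, *Clec7a*, *Clec10a* and *Clec12a*, and 9 of them were matched among the 27998 genes of the count tables. *Clec7a*, which encodes the β-glucan receptor Dectin-1, was not matched and was not analysed here. The cells were leukocytes enriched for CD45 from the tibialis anterior of male C57BL/6 mice aged 8 to 12 weeks, 2 or 4 days after injury with cardiotoxin (dpi2 and dpi4), a venom component that destroys muscle fibres. Control mice were littermates with a floxed *Bach1* gene, which encodes a heme-binding repressor of transcription, and mice labelled KO carried the same floxed gene together with Cre recombinase under the *Lyz2* promoter, which acts in myeloid cells. Single-cell 3′ RNA sequencing gave 1 library, from 1 mouse, for each of the 4 groups, so no spread between animals was measured and no test was possible.

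C-type lectin receptors fall into activating and inhibitory members. Mincle (*Clec4e*), MCL (*Clec4d*) and Dectin-2 (*Clec4n*) couple to the Fc receptor γ chain (*Fcer1g*), and MDL-1 (*Clec5a*) couples to DAP12 (*Tyrobp*); these adaptors recruit the kinase Syk and, through Card9, induce inflammatory genes. MICL (*Clec12a*) and DCIR (*Clec4a2*) carry an inhibitory motif in their cytoplasmic tail that recruits phosphatases such as Ptpn6, and MGL1 (*Clec10a*) binds galactose-type sugars. Several members respond to products of dying cells as well as to microbes.

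The 4 libraries held from 4177 to 6602 barcodes and from 57010520 to 80228489 UMIs (unique molecular identifiers, each counted as 1 RNA molecule), and from 3433 to 5721 cells per library were kept with median depths of 10702 to 15157 UMIs. Pairs of libraries shared from 2 to 14 cell barcodes. Levels are UMIs of a gene per 1000000 UMIs (CPM), pooled over all cells of one class within a library. The intervals given in parentheses are 95% intervals and cover counting error only, and a gene was past the size rule with a ratio of 2-fold or more, up or down, an interval that did not include 1, and 50 UMIs or more in both libraries together. The *Bach1* count did not follow the labels, with 122 CPM in control macrophages and 144 CPM in those labelled KO at dpi2, and 217 and 227 CPM at dpi4. Per the paper the loxP sites flank exon 4. Counts here are of the whole gene and cannot show whether that exon was lost. *Lyz2* followed the labels, with 8181 against 12.96 CPM at dpi2 and 18280 against 24.4 CPM at dpi4. The KO-labelled libraries thus differed from the control in *Lyz2* as well, and each direction below is between libraries as labelled.

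Cells were clustered without the members among the variable genes, and clusters were named macrophage-like, monocyte-like, neutrophil-like, dendritic cell-like or T or NK-like from marker genes (macrophages, monocytes and so on below). Listing control before KO-labelled, and dpi2 before dpi4, there were 1827, 1030, 3076 and 2642 macrophages. Monocytes were 2605, 995, 52 and 69 cells in the same order, neutrophils 628, 783, 128 and 35, and dendritic cells 317, 230, 337 and 373. A cluster of 627 cells led by *Pdcd1lg2*, *Il1f9* and *Mirt1* stayed unnamed because its median depth, 3422 UMIs, was more than 3 times below that of its libraries and none of its 10 leading genes was a neutrophil marker, and 520 of its cells were in the KO-labelled library at dpi2. All 10 neutrophil markers were detected in it, at a summed 15219 CPM, against 55681 and 79172 CPM in neutrophils at dpi2 (control and labelled KO). All 13 macrophage markers, at 2441 CPM against 995 and 958 CPM in those neutrophils, and all 9 monocyte markers, at 319.6 CPM, were detected as well. It is described beside the neutrophils because of its *Clec4n*, *Clec4d* and *Clec4e* levels.

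The members differed in the clusters where their level was highest, with all libraries summed. *Clec4e*, *Clec4d* and *Clec4n* were highest in neutrophils and the unnamed cluster, the *Clec4a* genes in monocyte clusters, *Clec10a* in dendritic cell clusters and *Clec12a* in macrophage clusters. Not every order of classes held in each library. *Clec4a2* in the control at dpi4 had 256, 224 and 150 CPM in neutrophils, macrophages and monocytes. *Clec12a* in the control at dpi2 had 185 and 181 CPM in macrophages and neutrophils, with overlapping intervals. *Clec4a3* was nearly as high in the *Iigp1* macrophage cluster (399 CPM) as in its highest monocyte cluster (407 CPM). Over the 18 myeloid clusters with all libraries summed, *Clec4e* ran from 2.05 CPM in the *Siglech* dendritic cell cluster to 2723 CPM in neutrophils. That cluster had 57 cells and no more than 3 UMIs of *Clec4e*, so its low value is uncertain. *Clec4n* ran from 12.3 CPM in the same dendritic cells to 3315 CPM in the unnamed cluster. Most cells of the unnamed cluster came from the KO-labelled library at dpi2, and in the control at dpi2 its *Clec4n* level, 935.3 CPM, was close to the 934.8 CPM of neutrophils. *Clec12a* was the most evenly spread member, from 18.3 CPM in the unnamed cluster to 311 CPM in the macrophage cluster led by *Pltp* and *C1qa*.

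**Figure D1:**
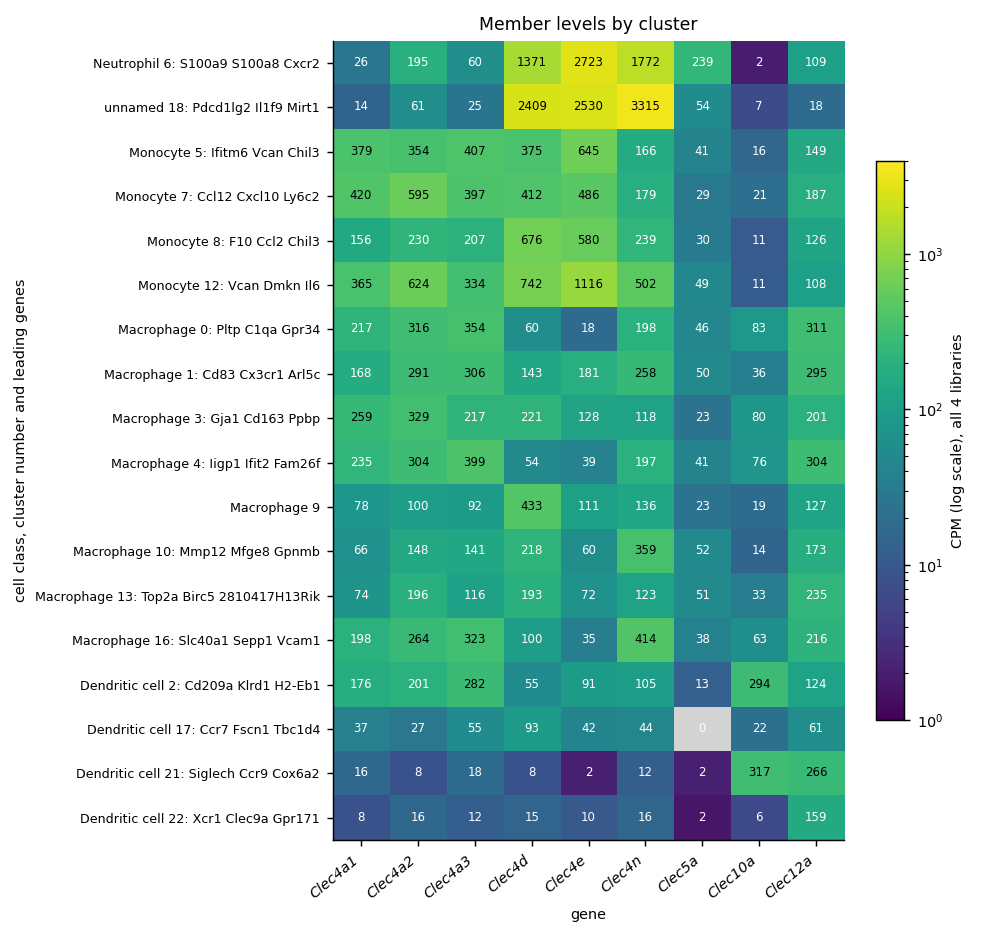
Level of each of the 9 matched members (columns) in 18 myeloid clusters (lines of the map), in CPM summed over all 4 libraries on a log colour scale, with the value printed in each cell. *Clec4e* and *Clec5a* are brightest in the neutrophil cluster, at 2723 and 239 CPM, and *Clec10a* in the *Siglech* and *Cd209a* dendritic cell clusters, at 317 and 294 CPM.

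*Clec4e*, *Clec4d* and *Clec4n* lie next to each other on chromosome 6 (GRCm38; *Clec4n* 123229843 to 123247021 and *Clec4d* 123262111 to 123275265 on the plus strand, *Clec4e* 123281789 to 123289870 on the minus strand). Mincle and MCL can form one complex on the cell surface. *Clec4d* and *Clec4e* levels ran together over the 18 clusters (Pearson r of log2 levels 0.94, a description over clusters that share libraries), and *Clec4n* followed them less closely (r = 0.83 with *Clec4d* and 0.80 with *Clec4e*). The 300 bases around the start of *Clec4e* and *Clec4d* are shown because these neighbours were the pair of activating receptors with the most similar levels (RefSeq, GRCm38.p6, 250 bases before to 50 bases after the start, read 5′ to 3′ on the gene's strand). Capitals mark the C/EBP core, searched as TTGCNNAA on both strands, which is present in 10.8% of 32851 promoters of the same length, and which in *Clec4e* starts 66 bases before the start of transcription. A match is a description of the letters.

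Clec4e (chr6:123289822-123290121, minus strand): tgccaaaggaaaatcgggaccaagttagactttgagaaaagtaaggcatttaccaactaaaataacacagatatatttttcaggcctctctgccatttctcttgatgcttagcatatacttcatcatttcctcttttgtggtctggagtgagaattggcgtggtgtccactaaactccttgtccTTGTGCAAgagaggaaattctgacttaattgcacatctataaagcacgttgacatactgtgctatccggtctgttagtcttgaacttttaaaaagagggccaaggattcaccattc
Clec4d (chr6:123261857-123262156, plus strand): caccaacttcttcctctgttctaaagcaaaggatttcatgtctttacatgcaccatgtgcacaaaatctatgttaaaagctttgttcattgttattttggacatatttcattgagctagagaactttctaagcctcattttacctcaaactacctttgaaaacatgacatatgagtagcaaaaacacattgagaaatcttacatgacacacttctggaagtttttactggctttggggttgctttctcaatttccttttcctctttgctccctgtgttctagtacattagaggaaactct

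In neutrophils *Clec4e* had 2582, 2919, 2219 and 1220.2 CPM (control and labelled KO at dpi2, then at dpi4). In monocytes it had 548, 974, 613 and 489 CPM, and in macrophages 63.6, 207, 61.5 and 40.0 CPM. The order neutrophils over monocytes over macrophages thus held in all 4 libraries, with intervals that did not overlap. *Clec4d*, the partner of Mincle, had 929.6, 1730.4, 603 and 817 CPM in neutrophils, 469.5, 709, 367 and 259 CPM in monocytes, and 302, 421, 123 and 162 CPM in macrophages, in the same order of classes. *Clec4n* was at 935, 2302, 1358 and 1160 CPM in neutrophils and at 166, 443, 215 and 324.5 CPM in monocytes. In macrophages it was at 22.6, 270.0, 168 and 490.5 CPM, so that in the KO-labelled library at dpi4 macrophages stood above monocytes.

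**Figure D2:**
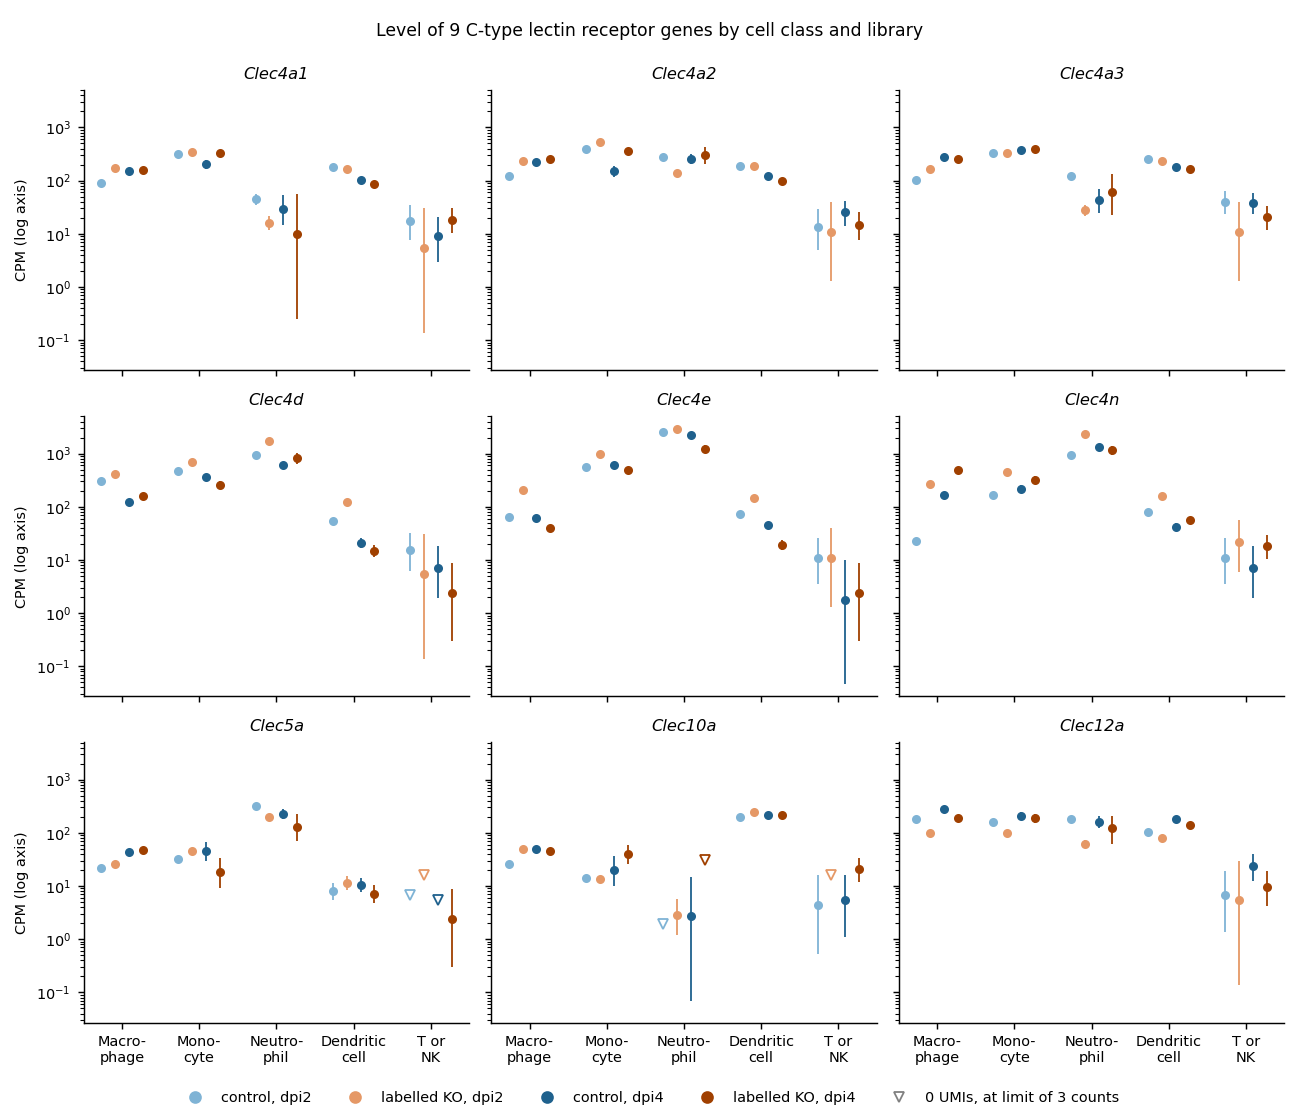
Level of each matched member in macrophages, monocytes, neutrophils and dendritic cells of each library, in CPM on a log axis, with 95% counting intervals as bars. *Clec4n* in macrophages is lowest in the control at dpi2 (22.6 CPM) and highest in the KO-labelled library at dpi4 (490.5 CPM).

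The first comparison asked which receptors differed between genotypes in macrophages, the cells that clear the debris of dead fibres. At dpi2 the highest ratio was that of the Dectin-2 gene, with *Clec4n* at 22.6 CPM (21.1 to 24.2) in control cells and 270.0 CPM (264 to 276) in the KO-labelled library, a ratio of 12.0 (11.1 to 12.9). It ranked 12 from the highest among 11103 genes scored. Mincle was the other member past the size rule, with *Clec4e* at 63.6 and 207 CPM, a ratio of 3.26 (3.11 to 3.42) and rank 71. These 2 of 9 members compare with 2.27% of all genes scored that were at least 2-fold higher in the KO-labelled library, and 0 of 9 members were at least 2-fold lower, against 2.16% of genes.

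The *Clec4a* genes and *Clec10a* were also higher in macrophages labelled KO at dpi2, but stayed under 2-fold over the whole class. *Clec4a1* went from 89.9 to 175 CPM (ratio 1.95, 1.86 to 2.03), *Clec4a2* from 124 to 231 CPM (1.86, 1.79 to 1.93), *Clec4a3* from 104 to 165 CPM (1.59, 1.52 to 1.66) and *Clec10a* from 26.3 to 49.6 CPM (1.88, 1.74 to 2.05). *Clec4d* was at 302 and 421 CPM (1.39, 1.36 to 1.43) and *Clec5a* at 22.2 and 26.3 CPM (1.18, 1.07 to 1.31). *Clec12a*, the inhibitory receptor MICL, was the one member with a ratio under 1, at 185 CPM in the control and 98.4 CPM in the KO-labelled library (0.532, 0.509 to 0.556). The median log2 ratio over the 9 members was 0.89, beside -0.01 over all genes scored. With monocytes and macrophages taken as 1 class, the log2 ratios of *Clec4a1*, *Clec4a2* and *Clec4a3* went from 0.96, 0.89 and 0.67 to 0.31, 0.48 and 0.11. Macrophage cluster 9 held most macrophages at dpi2 (1162 control and 596 KO-labelled cells). Within it the ratios were 3.09 for *Clec4a1*, 2.94 for *Clec4a2*, 2.01 for *Clec4a3* and 2.00 for *Clec10a*. Within the *Gja1* macrophage cluster they were 1.20, 1.28, 1.08 and 1.73 in the same order.

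At dpi4 *Clec4n* was again the member with the highest ratio in macrophages, at 168 CPM (165 to 172) in control cells and 490.5 CPM (484 to 497) in the KO-labelled library, a ratio of 2.91 (2.84 to 2.98) and rank 50 of 11985 genes. It was the single member past the size rule in the higher direction, which took 0.993% of all genes, and 0 of 9 members passed it in the lower direction, against 1.34%. *Clec4e* had the opposite direction to dpi2, with 61.5 CPM in the control and 40.0 CPM in the KO-labelled library (0.651, 0.615 to 0.689). *Clec12a* was again lower, at 276 and 192 CPM (0.696, 0.678 to 0.714). The *Clec4a* genes, *Clec10a* and *Clec5a* had ratios from 0.913 to 1.13, and *Clec4d* had 1.32 (1.28 to 1.36). The median over members was 0.07, beside 0.02 over all genes.

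**Figure D3:**
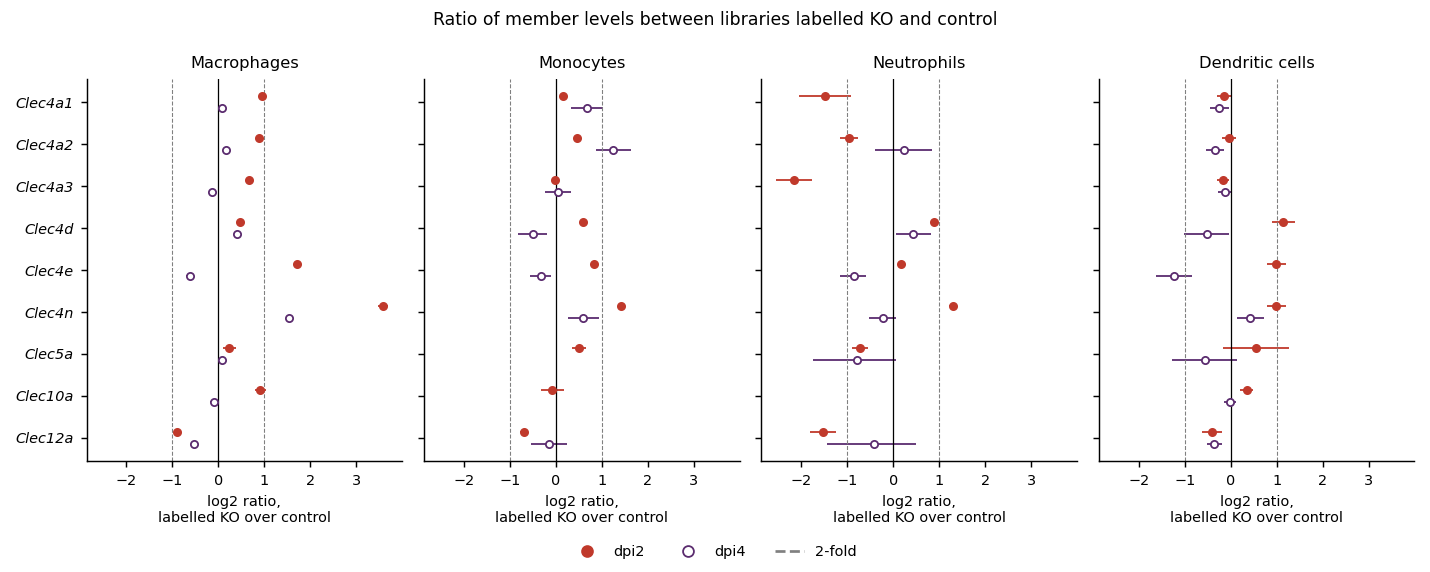
Log2 ratio of labelled KO over control for each matched member, with panels for the cell classes, filled points for dpi2 and open points for dpi4, 95% counting intervals as bars and dashed lines at 2-fold. In macrophages *Clec4n* lies at 3.58 at dpi2 and 1.54 at dpi4, and *Clec4e* at 1.71 and -0.62.

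The same order of libraries was seen in the share of macrophages with at least 1 UMI of *Clec4n* after each cell was thinned to 2000 UMIs. These shares were 4.32% (3.43% to 5.36%, exact binomial interval) and 28.2% (25.4% to 31.0%) for control and labelled KO at dpi2, and 26.6% (25.1% to 28.3%) and 49.2% (47.3% to 51.2%) at dpi4. Without thinning they were 20.1%, 72.0%, 69.2% and 83.9%, at median depths of 18866, 27097.5, 16228 and 15352 UMIs per macrophage. T or NK cells, which should lack the gene, had thinned shares of 2.02%, 2.78%, 2.70% and 5.43% at median depths of 3950, 4736.5, 4962 and 4899 UMIs, and the interval of the control value at dpi2 (0.246% to 7.11%) included that of the control macrophages. For *Clec12a* the thinned shares of macrophages at dpi2 were 29.0% (control) and 15.7% (labelled KO), with 40.5% and 30.7% at dpi4, against at most 4.05% of T or NK cells in any library.

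Neutrophil markers in macrophages moved with these ratios at dpi2. Their summed level was 118 CPM in the control and 280 CPM in the KO-labelled library at dpi2, where 6 of the 8 markers scored were at least 2-fold higher, and 96.9 and 77.1 CPM at dpi4. *Ly6g* was at 0 in macrophages of every library except the control at dpi2. In macrophages labelled KO at dpi2 the neutrophil markers stood at 0.354% of their level in neutrophils of that library, and *Clec4n* stood at 11.7% and *Clec4e* at 7.11% of theirs. In the unnamed cluster of that library the markers summed to 16324 CPM and *Clec4n* was at 3692 CPM. In its neutrophils these values were 79172 and 2302 CPM. The part of the neutrophil markers in the macrophage ratios was not tested. Pooling monocytes with macrophages gave log2 ratios at dpi2 of 1.95 for *Clec4n* and 0.75 for *Clec4e*, the latter under 2-fold. Because classes are summed, fewer cells with a gene and less of it per cell cannot be told apart in a CPM value.

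The *Clec4n* difference was also seen within single macrophage clusters. In cluster 9, which held most macrophages at dpi2, *Clec4n* was at 15.2 CPM in the control and 285 CPM in the KO-labelled library at dpi2. This was a ratio of 18.7 (16.8 to 20.9), and *Clec4e* had a ratio of 3.87 (3.63 to 4.13) there. In the *Gja1* and *Cd163* cluster at dpi2 *Clec4n* was at 30.1 CPM in the control and 205 CPM in the KO-labelled library, a ratio of 6.81 (5.94 to 7.83). At dpi4 the ratio was 4.24 (3.99 to 4.51) in the *Mmp12* and *Gpnmb* cluster, at 125 and 528 CPM, 2.76 (2.66 to 2.86) in the *Slc40a1* and *Vcam1* cluster, at 221 and 608 CPM, and 1.55 (1.43 to 1.68) in the *Cd83* and *Cx3cr1* cluster. Over all clusters and both time points *Clec4n* had a ratio over 1 in 18 of the 19 pairs scored and was past the size rule in 14, with a median log2 ratio of 1.22. *Clec4e* was at least 2-fold higher in 5 of 19 pairs and at least 2-fold lower in 1. These pairs share the same 4 libraries and are not independent, and such counts were not made for all genes.

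**Figure D4:**
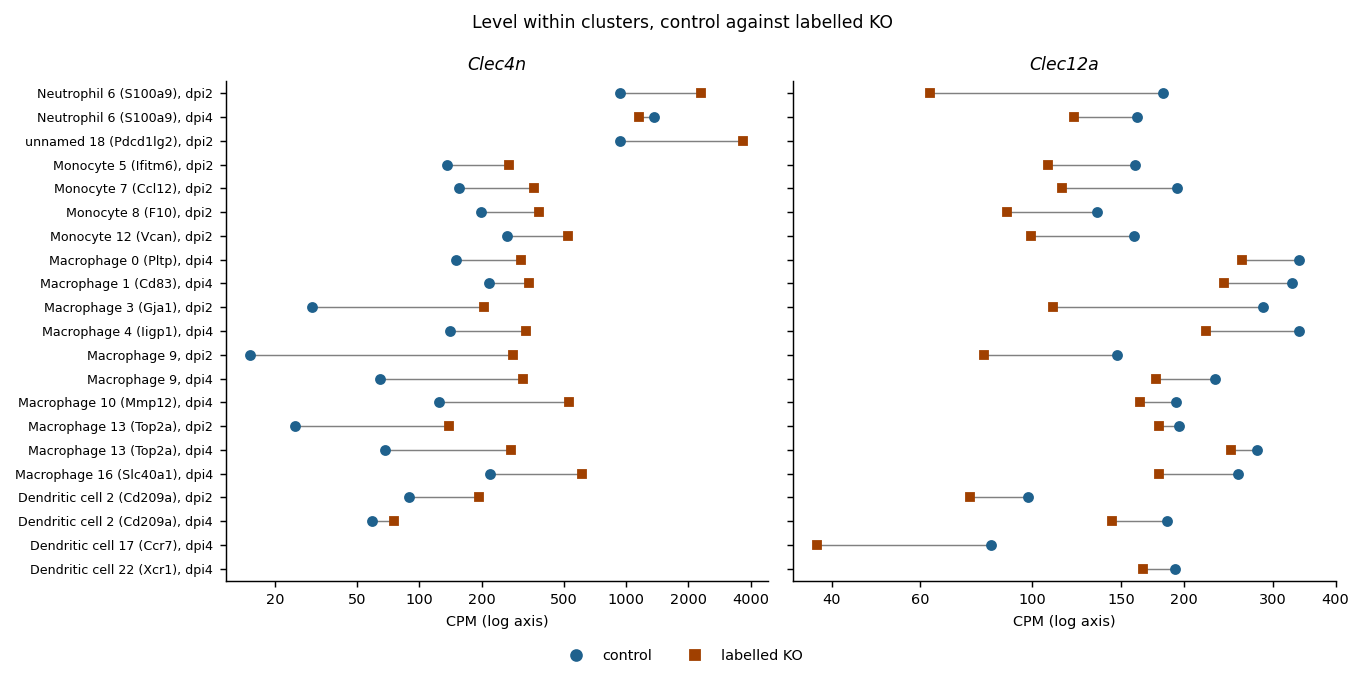
Levels of *Clec4n* (left) and *Clec12a* (right) within single clusters, in CPM on a log axis, with circles for the control and squares for the KO-labelled library at the same time point. The square lies to the right of the circle in 18 of 19 pairs for *Clec4n* and to the left in 20 of 20 pairs for *Clec12a*. The pairs share the same 4 libraries and are not independent.

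*Clec12a* (chromosome 6, 129342691 to 129365303, plus strand) had a ratio under 1 in all 8 pairs of class and time point and in 20 of 20 pairs of cluster and time point, where the median log2 ratio was -0.48 (lowest -1.53, highest -0.13). The class intervals included 1 at dpi4 in monocytes (0.685 to 1.18) and neutrophils (0.367 to 1.41). All these pairs share the same 4 libraries and are not independent, and neutrophils are the same cells in both counts. The count over clusters was not made for all genes. Only 3 of the 20 cluster pairs passed the size rule, in neutrophils at dpi2, in the *Gja1* macrophage cluster at dpi2, at 287 CPM in the control and 110.1 CPM in the KO-labelled library (0.384, 0.355 to 0.415), and in the *Ccr7* dendritic cell cluster at dpi4 (0.452, 0.25 to 0.791). Of 5360 genes scored in 6 comparisons of the larger classes, 6.04% had a ratio under 1 in all 6, and *Clec12a* was one of them. Its promoter is shown because it is the other member with a C/EBP core, in capitals, which starts 140 bases before the RefSeq start of transcription. That start is inside the gene span given above rather than at its beginning.

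Clec12a (chr6:129349994-129350293, plus strand): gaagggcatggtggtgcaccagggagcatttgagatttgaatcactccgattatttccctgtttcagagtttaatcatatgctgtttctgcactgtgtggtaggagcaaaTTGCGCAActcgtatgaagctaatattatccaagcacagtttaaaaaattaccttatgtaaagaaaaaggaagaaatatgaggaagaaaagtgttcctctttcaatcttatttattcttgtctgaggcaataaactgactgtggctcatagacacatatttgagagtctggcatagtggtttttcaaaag

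In monocytes, which enter injured muscle from the blood, *Clec4n* was the member past the size rule at dpi2. Its level was 166 CPM (161 to 171) in control cells and 443 CPM (432 to 454) in the KO-labelled library, a ratio of 2.67 (2.57 to 2.77) and rank 86 of 10058 genes. That 1 of 9 members compares with 1.88% of genes at least 2-fold higher, and 0 of 9 members were lower, against 2.67%. *Clec4e* was at 548 and 974 CPM (1.78, 1.74 to 1.82), *Clec4d* at 469.5 and 709 CPM (1.51, 1.47 to 1.55) and *Clec12a* at 163 and 100.3 CPM (0.617, 0.581 to 0.654). The median over members was 0.47, beside -0.01 over all genes.

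Different clusters held most monocytes of each library at dpi2, namely the clusters led by *Ifitm6*, by *Ccl12* and by *F10* in the control (950, 780 and 795 cells) and the cluster led by *Vcan* and *Dmkn* in the KO-labelled library (551 of 995 cells). Within these clusters *Clec4n* ratios were 2.00 (1.82 to 2.20), 2.30 (2.05 to 2.57), 1.90 (1.75 to 2.06) and 1.99 (1.74 to 2.28). The last 2 were under 2-fold. *Clec4e* ratios within them were 1.21, 1.66, 1.34 and 1.35. For both genes all 4 ratios were smaller than in the whole class. Neutrophil markers in monocytes summed to 247 CPM in the control and 489.7 CPM in the KO-labelled library, or 0.444% and 0.619% of the neutrophil level, and *Clec4n* stood at 17.8% and 19.2%. The part of these markers in the monocyte ratios was not tested. At dpi4, with 52 and 69 monocytes, *Clec4n* was at 215 and 324.5 CPM (1.51, 1.19 to 1.92) and *Clec4a2* at 150.1 and 358 CPM (2.39, 1.84 to 3.12).

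Neutrophils, which arrive first and are cleared within days, showed the members moving both ways at dpi2. *Clec4n* was at 935 CPM (887 to 985) in control cells and 2302 CPM (2246 to 2358) in the KO-labelled library, a ratio of 2.46 (2.33 to 2.61) and rank 90 of 5726 genes. *Clec4d* was at 929.6 and 1730.4 CPM (1.86, 1.75 to 1.98), and *Clec4e* at 2582 and 2919 CPM (1.13, 1.09 to 1.17). *Clec4a3* was at 123 and 27.7 CPM (0.225, 0.170 to 0.294), *Clec12a* at 181 and 62.8 CPM (0.346, 0.285 to 0.419) and *Clec4a1* at 44.5 and 16.0 CPM (0.358, 0.240 to 0.530). *Clec5a*, for which neutrophils had the highest level of any class, was at 326 and 198 CPM (0.607, 0.537 to 0.686). *Clec10a* had 0 and 8 UMIs and was not scored.

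Different clusters held most neutrophils of each library at dpi2 when clustering was finer. At resolution 2 they fell into a cluster led by *Siglecf* and *Mmp9*, with 579 control and 131 KO-labelled cells, and one led by *Gm5483* and *Retnlg*, with 50 and 689. Ratios within each of them, computed after seeing the data, were past 2-fold for *Clec4n* in both, at 2.41 (2.21 to 2.62) and 3.12 (2.56 to 3.84), and for *Clec12a* in both, at 0.25 (0.148 to 0.399) and 0.356 (0.227 to 0.585). *Clec4a3* was at 0.383 (0.232 to 0.604) in the first and, with 4 UMIs in the 50 control cells, at 0.731 (0.271 to 2.77) in the second. *Clec4a1* was past 2-fold in neither, at 0.672 (0.340 to 1.23) in the first and with 3 control UMIs and no score in the second. *Clec4d* had ratios of 1.31 and 1.48, against 1.86 in the whole class. *Clec4a2* in the *Siglecf* cluster (0.491, 0.365 to 0.650) and *Clec5a* in the *Gm5483* cluster (0.485, 0.361 to 0.665) were at least 2-fold lower there but not in the whole class.

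Of the 8 members scored in neutrophils, 1 was at least 2-fold higher, against 2.53% of all genes, and 3 were at least 2-fold lower, against 6.99%. The median over all genes was itself -0.31 in this class, beside -0.84 over the members. With TMM scaling, which shifted log2 ratios by 0.38, the all-gene median was 0.07 and the share of genes past the rule that were higher went from 26.6% to 65.9%. Under it *Clec4d* joined *Clec4n* among the higher members, and *Clec4a1*, *Clec4a3* and *Clec12a* were still at least 2-fold lower. Monocyte markers in neutrophils were lower too, at a summed 2062 CPM in the control and 1240.0 CPM in the KO-labelled library, with 4 of 8 scored at least 2-fold lower. In the control neutrophils those markers stood at 16.6% of the monocyte level, *Clec4a1* at 14.2%, *Clec4a3* at 36.8% and *Clec12a* at 112%. In the KO-labelled library the same values were 12.5%, 4.58%, 8.39% and 62.6%. Their part in these ratios was not tested.

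In the unnamed cluster, set beside the neutrophils, *Clec4n* was at 935 CPM in the control at dpi2 (91 cells) and 3692 CPM in the KO-labelled library (520 cells), a ratio of 3.95 (3.48 to 4.5). *Clec4d* was at 985 and 2616 CPM (2.66, 2.34 to 3.02) and *Clec4e* at 1155 and 2752 CPM (2.38, 2.12 to 2.68). At dpi4 only 128 and 35 neutrophils were left, and their *Clec4n* ratio was 0.854 (0.691 to 1.05), the 1 class and time point at which the gene was not higher in the KO-labelled library.

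Of 5618 genes scored in macrophages at both time points and in monocytes and neutrophils at dpi2, 8 (0.142%) were at least 2-fold higher in the KO-labelled library in all 4 comparisons. These were *Clec4n*, *Gclm*, *Hmox1*, *Slc48a1*, *Gpc1*, *Cd1d1*, *Vps37b* and *Lyz1*, singled out after their values were seen. *Hmox1* encodes the enzyme that degrades heme, *Slc48a1* a heme transporter and *Gclm* a subunit of the enzyme that makes the precursor of glutathione. *Lyz1* is the paralog of *Lyz2*, and its counts are uncertain where reads fit both copies.

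Dendritic cells, which carry antigen to lymph nodes, had lower levels of the activating members than neutrophils and monocytes. In the control at dpi2 they stood above macrophages for *Clec4n* (78.9 against 22.6 CPM) and *Clec4e* (74.7 against 63.6 CPM), with overlapping intervals for *Clec4e*. At dpi2 *Clec4d* was at 54.5 CPM (47.3 to 62.5) in control cells and 121 CPM (109.8 to 132) in the KO-labelled library, a ratio of 2.21 (1.87 to 2.62). It was the 1 of 9 members at least 2-fold higher, against 1.38% of genes, and 0 were lower, against 1.53%. *Clec4e* was at 74.7 and 149 CPM (1.99, 1.72 to 2.31) and *Clec4n* at 78.9 and 157 CPM (1.98, 1.72 to 2.29), both just under the limit. Over 8 other settings the log2 ratio of *Clec4d* ran from 0.89 to 4.06, and that of *Clec4n* from -0.0046 with the listed genes allowed among the variable genes to 1.21. At dpi4 *Clec4e* was at 45.4 and 19.3 CPM (0.424, 0.323 to 0.554), the 1 member at least 2-fold lower, against 1.01% of genes, while 0 were higher, against 0.771%. The medians over members were 0.35 at dpi2, beside -0.02 over all genes, and -0.34 at dpi4, beside 0.03.

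Neutrophil markers in dendritic cells summed to 184 and 489 CPM at dpi2 and to 237 and 101 CPM at dpi4, and thus had the same direction as *Clec4e* at both time points. At dpi2 they were 0.331% and 0.618% of the neutrophil level, where *Clec4d* was at 5.86% and 6.97%. The class rested mainly on the *Cd209a* cluster (253, 178, 225 and 237 cells), which also had *Klrd1*, a marker of T or NK cells, among its leading genes and lost its name at both time points under 3 settings, under which the log2 ratio of *Clec4e* at dpi4 was between 1.90 and 2.82. In that cluster alone at dpi2 *Clec4d* had a ratio of 1.68 (1.41 to 2.02), under 2-fold, while *Clec4n* was 2.18-fold higher (1.88 to 2.53). There *Clec4e* was 2.06-fold higher (1.77 to 2.40) at dpi2 and had a ratio of 0.315 (0.228 to 0.429) at dpi4. The part of the neutrophil markers in these ratios was not tested.

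*Clec10a* (chromosome 11, 70156197 to 70170834, plus strand), which encodes MGL1, was higher in dendritic cells than in macrophages, monocytes and neutrophils of all 4 libraries. It had 197, 251, 218 and 216 CPM in dendritic cells, 26.3, 49.6, 49.0 and 45.8 CPM in macrophages and 14.4, 13.7, 20.4 and 40.3 CPM in monocytes. Within dendritic cells it was at 294 CPM in the *Cd209a* cluster and 317 CPM in the *Siglech* cluster, but at 21.6 CPM in the *Ccr7* cluster and 6.14 CPM in the *Xcr1* and *Clec9a* cluster. Among macrophage clusters it was at 82.7 CPM in the *Pltp* and *C1qa* cluster with all libraries summed, while the *Gja1* cluster had 58.2 CPM in the control and 100.4 CPM in the KO-labelled library at dpi2. In neutrophils 0, 8, 1 and 0 UMIs were counted, and a count of 0, with 3 counts taken as its limit, allows up to 1.97 CPM in the control at dpi2 and 30.3 CPM in the KO-labelled library at dpi4.

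*Clec4a1*, *Clec4a3* and *Clec4a2* lie in this order on chromosome 6 (from 122921848 to 122934619, 122952515 to 122969875 and 123106428 to 123143999, plus strand). They are close paralogs of the DCIR family, and how reads that fit several copies were assigned was not examined, so their separate levels are uncertain. Over clusters they ran together (r = 0.97 between *Clec4a1* and *Clec4a3*, 0.91 between *Clec4a2* and *Clec4a3*). *Clec4a2* had 389, 538, 150.1 and 358 CPM in monocytes, 124, 231, 224 and 253 CPM in macrophages and 191, 186, 124 and 98.3 CPM in dendritic cells. *Clec4a1* had 315, 348, 206 and 329.5 CPM in monocytes, and *Clec4a3* had 335, 329.8, 372 and 387 CPM. Both were under 20 CPM in the *Xcr1* dendritic cell cluster, at 8.18 and 11.9 CPM. The *Clec4a2* promoter is shown because it is the 1 member promoter with a TRE, the site of AP-1 and of small Maf complexes, searched as TGAGTCA on both strands and present in 5.2% of all promoters. It lies 32 bases after the RefSeq start of transcription and is in capitals. That start is inside the gene span given above rather than at its beginning.

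Clec4a2 (chr6:123122440-123122739, plus strand): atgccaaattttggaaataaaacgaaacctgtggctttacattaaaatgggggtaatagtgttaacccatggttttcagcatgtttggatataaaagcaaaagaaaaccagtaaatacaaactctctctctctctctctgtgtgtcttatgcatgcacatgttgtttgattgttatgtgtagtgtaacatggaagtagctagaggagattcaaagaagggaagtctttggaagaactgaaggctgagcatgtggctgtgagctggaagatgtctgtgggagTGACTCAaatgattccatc

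Of the 10 listed genes, 8 were matched in the promoter table, and 0 of their 10 promoters held the core of the antioxidant response element, searched as TGACNNNGC on both strands and present in 12.4% of all promoters. *Clec4n* and *Clec10a* had no entry.

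The second question was how receptor levels differed between the time points, which separate an early inflammatory from a later repair stage. In control macrophages *Clec4n* was at 22.6 CPM at dpi2 and 168 CPM at dpi4, a ratio of 7.46 (6.95 to 8.02), *Clec4a3* at 104 and 277 CPM (2.66, 2.57 to 2.75) and *Clec5a* at 22.2 and 44.5 CPM (2.00, 1.85 to 2.17). *Clec4d* had the opposite direction, at 302 and 123 CPM (0.407, 0.395 to 0.419). These 3 of 9 members at least 2-fold higher at dpi4 compare with 9.9% of genes, and the 1 lower member with 6.11%. The median over members was 0.85, beside -0.07 over all genes.

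The KO-labelled library had no member at least 2-fold higher at dpi4 in macrophages, against 8.73% of genes, and 2 lower, against 4.87%. These were *Clec4e*, at 207 and 40.0 CPM (0.193, 0.183 to 0.203), and *Clec4d*, at 421 and 162 CPM (0.385, 0.374 to 0.396). *Clec4n* was at 270.0 and 490.5 CPM (1.82, 1.77 to 1.86) and *Clec12a* at 98.4 and 192 CPM (1.95, 1.87 to 2.04). The median over members was 0.13, beside -0.05 over all genes. The macrophages of the 2 days lay in different clusters, among them the *Gja1* cluster at dpi2 and the *Slc40a1*, *Pltp*, *Cd83*, *Mmp12* and *Iigp1* clusters at dpi4.

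**Figure D5:**
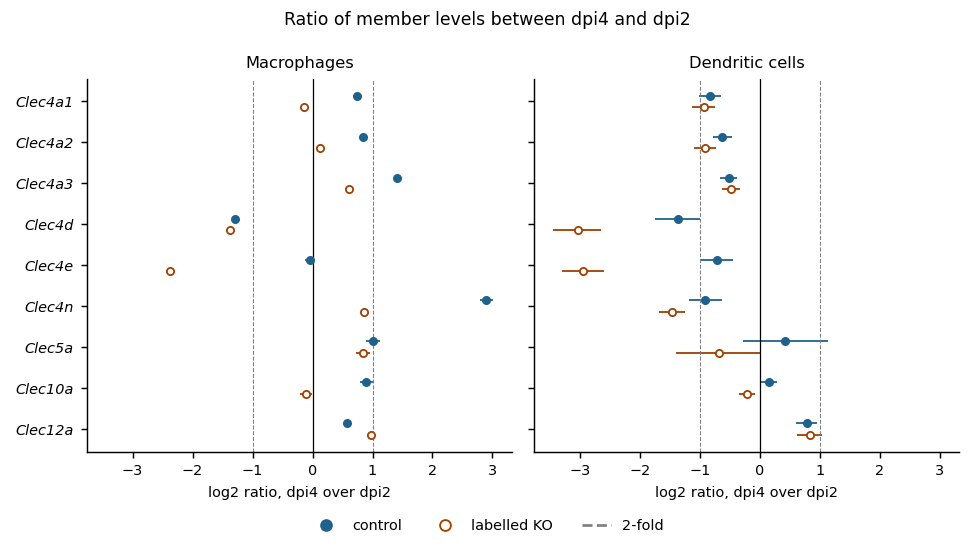
Log2 ratio of dpi4 over dpi2 for each matched member in macrophages (left) and dendritic cells (right), filled for control and open for the KO-labelled library, with 95% counting intervals and dashed lines at 2-fold. In macrophages *Clec4n* lies at 2.90 in the control and 0.86 in the KO-labelled library, and *Clec4e* at -0.05 and -2.37.

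In dendritic cells *Clec4d* was at least 2-fold lower at dpi4 in both pairs of libraries. In the control *Clec4d* was at 54.5 and 21.1 CPM (0.388, 0.298 to 0.501), the 1 member at least 2-fold lower, against 3.23% of genes, and 0 were higher, against 4.29%. Under 3 other settings of the clustering this log2 ratio was between 0.52 and 1.66. In the KO-labelled library *Clec4d* was at 121 and 14.7 CPM (0.122, 0.092 to 0.159), *Clec4e* at 149 and 19.3 CPM (0.130, 0.101 to 0.164) and *Clec4n* at 157 and 56.6 CPM (0.362, 0.310 to 0.422). These 3 lower members compare with 2.72% of genes and the 0 higher with 3.88%. *Clec12a* had ratios over 1 in both, 1.71 (1.51 to 1.94) and 1.77 (1.54 to 2.05). The medians over members were -0.62 and -0.92, beside -0.02 and 0.03 over all genes.

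At a limit of 1.5-fold in either direction, more members and more of all genes passed. Between genotypes at dpi2, 7 members passed in macrophages against 11.2% of genes, 4 in monocytes against 11.6%, 7 in neutrophils against 27.1% and 3 in dendritic cells against 9.4%. At dpi4, 2 passed in macrophages against 7.39% and 1 in dendritic cells against 5.73%. Between time points, 7 passed in control macrophages against 35.6% and 6 in those labelled KO against 32.2%, and in dendritic cells 6 passed in the control against 20.9% and 6 in the KO-labelled library against 18.7%.

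The receptors signal through adaptors and kinases. All 17 genes listed as adaptors and signalling proteins were scored, and 0 passed the size rule in each of the 6 comparisons of labelled KO with control, against 0.771% to 2.53% of all genes higher and 1.01% to 6.99% lower. Their medians ran from -0.07 to 0.24, and those of all genes from -0.31 (neutrophils) to 0.03. *Fcer1g*, the partner of Mincle, MCL and Dectin-2, was at 2239, 1856, 2536 and 2352 CPM in macrophages, *Tyrobp* at 1639.7, 1641, 3019 and 2759 CPM and *Syk* at 95.4, 123, 174 and 176 CPM. Between time points *Hcst*, which encodes the adaptor DAP10, was 2.41-fold higher at dpi4 in control macrophages and 2.10-fold in those labelled KO, and the kinase genes *Fgr* (2.19) and *Prkcd* (2.00) passed in the control, against 9.9% of all genes in the control and 8.73% in the KO-labelled pair. *Dok3*, an inhibitor of this signalling, had a ratio of 0.468 between time points in dendritic cells labelled KO, the 1 of 17 at least 2-fold lower there, against 2.72% of all genes.

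Other C-type lectin genes, 27 in the list, were mostly low. In macrophages at dpi2, 12 were scored, 4 were at least 2-fold higher in the KO-labelled library, against 2.27% of all genes, and 0 were lower, against 2.16%, with a median of 0.37. These were *Cd209f* (82 against 7 UMIs), *Ly75* (4.55), *Olr1*, a receptor for oxidized lipoprotein (2.68), and *Cd302* (2.53). At dpi4, 16 were scored and 0 passed in either direction, against 0.993% of genes higher and 1.34% lower. Of 10 scored in monocytes at dpi2, *Olr1* was 2.35-fold higher, against 1.88% of genes, and *Clec2g* had a ratio of 0.418, against 2.67% lower. Of 5 scored in neutrophils *Mrc1* (2.07) and *Clec2d* (0.486) passed, against 2.53% higher and 6.99% lower. Of 10 scored in dendritic cells at dpi2 *Ly75* (3.44) and *Cd209d* (2.12) passed, against 1.38% higher. Between time points in macrophages 14 were scored in the control and 5 were at least 2-fold higher at dpi4, against 9.9% of genes, led by *Asgr2* (82 against 1 UMIs), *Clec1a* (27.0), *Clec1b* (7.63) and *Clec4b1* (2.48). In the KO-labelled library 15 were scored, of which 4 were higher, against 8.73%, among them *Clec1a* (9.02) and *Clec1b* (6.22), and 6 were lower, against 4.87%, with the lowest ratio for *Cd209f*. In dendritic cells *Olr1* and *Ly75* (2.91), of 11 scored, were higher at dpi4 in the control, against 4.29%. In the KO-labelled library, of 10 scored, *Clec9a* was higher (2.15), against 3.88%, and *Cd209d* had a ratio of 0.451, against 2.72% lower. Of 3 genes for described ligands of these receptors, *Lgals9* (0.490 in neutrophils at dpi2) and *Vim* (0.474 between time points in dendritic cells labelled KO) passed, against 6.99% and 2.72% of all genes lower. *Sf3b3*, the source of a Mincle ligand, did not pass in these 10 comparisons.

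The genes whose levels over 20 sums of class and library were most like each member were named by the Pearson r of log2(CPM + 1), among 11373 genes. *Clec4n* was most like *Slc7a11*, which encodes the cystine transporter (r = 0.956), followed by *Pilrb2*. *Clec4e* was most like *Ccr1* (0.983), *Hp* and *Cmip*, *Clec4d* like *C5ar1* (0.979), *Gm5150* and *Cxcl2*, and *Clec5a* like *Tlr6* (0.967), *Csf3r* and *Rnf149*. *Clec12a* was most like *Unc93b1* (0.963), *AF251705* and *Gpx1*, and *Clec10a* like *Slamf9* (0.958), *Shtn1* and *Fads3*. *Clec4a1* was most like *Nupr1* (0.962) and *AI607873*, *Clec4a2* like *Ralb* (0.955), *Pirb* and *Lrrc25*, and *Clec4a3* like *Clec4a1* (0.944), *Zeb2os* and *Zeb2*. The 20 points share 4 libraries and are not independent.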

How the data were processed

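CD45-enriched muscle leukocytes were profiled in 4 libraries. The authors deposited raw UMI counts per gene and barcode, which per the submitters' processing notes came from Cell Ranger 6.1.2 with the mm10 genome; the lowest barcode totals were 500 or 501 UMIs. The labels give a v2 chemistry and the methods a later one. The counts were not normalized.

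Barcodes with under 10% mitochondrial UMIs and at least 500 genes were kept. Doublets were removed as the highest Scrublet scores, at 0.8% per 1000 cells. From 2000 variable genes, those remaining after the listed lectin, signalling and ligand genes were left out (1978) gave 30 principal components, 15 neighbours and 26 Leiden clusters at resolution 1 (scanpy 1.11.5, igraph 0.11.9). Clusters were named from 98 marker genes, of which 96 were matched, and 3 stayed unnamed. A cluster stayed unnamed with fewer than 3 markers detected in at least 10% of cells, with more markers of another class among its 10 leading genes, or with none of its own there and a median depth more than 3 times below that of its libraries.

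Within each library the UMIs of all cells of one class were pooled. A level has an exact Poisson interval, a ratio the exact conditional binomial interval and a share the Clopper-Pearson interval (scipy 1.17.1), all at 95%. No p-value was computed. The size rule was applied to every gene with at least 50 UMIs in the pair. Sums were tested on simulated data. TMM factors were from edgeR 4.0.16 in R 4.3.3. Classes with under 30 cells were not used.

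The text names all members, up to 4 listed genes per list and comparison past the size rule, and the 3 genes most like each member. Some genes that these rules take are not reported here. The members, lists and settings were chosen with earlier results of these data known. Alternatives were another mitochondrial limit, gene minimum, resolution, doublet step, clustering by library, scaling, size rule and thinning.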

Additional observations from a re-analysis of the deposited data

Results flagged for a closer look

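The difference between labelled KO and control had opposite directions at dpi2 and dpi4 for the 7 pairs of gene and class given here, each with intervals that left out 1 at both time points and log2 ratios at least 1 apart. *Clec4a3* in macrophages (0.67 and -0.13) also had opposite directions, less than 1 apart. These differences between time points were not tested, since each value comes from 1 pair of libraries. For *Clec4e* in macrophages the log2 ratio was 1.71 at dpi2 and -0.62 at dpi4, a difference of -2.32. The sign at dpi4 was kept in 9 of 9 other settings, but the value rose to -0.045 with each library clustered by itself, and in the *Pltp* cluster at dpi4 the ratio was 1.72 (1.25 to 2.35). For *Clec10a* in macrophages it was 0.91 and -0.10, a difference of -1.01, and the sign at dpi4 was kept in 6 of 9 other settings. For *Clec4d* in dendritic cells it was 1.15 and -0.52, a difference of -1.67, and the sign at dpi4 was kept in 4 of 8 other settings. For *Clec4e* in dendritic cells it was 0.995 and -1.24, a difference of -2.23, and the sign at dpi4 was kept in 5 of 8. In monocytes it was 0.59 and -0.50 for *Clec4d*, a difference of -1.10, and 0.83 and -0.33 for *Clec4e*, a difference of -1.16. For *Clec4e* in neutrophils it was 0.18 and -0.86, a difference of -1.04. Only 52 and 69 monocytes and 128 and 35 neutrophils (control and labelled KO) stood behind the dpi4 values, and no other setting was run for these classes at dpi4. Summed neutrophil markers had the same direction as *Clec4e* in macrophages and dendritic cells, with 118 and 280.3 CPM in macrophages and 184 and 489 CPM in dendritic cells at dpi2, and 96.9 and 77.1 CPM and 237 and 101 CPM at dpi4 (control and labelled KO). Their part in these differences was not tested.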

How the results depend on the processing

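The higher *Clec4n* level in libraries labelled KO stayed past the size rule under every setting run for macrophages at both time points and for monocytes and neutrophils at dpi2, with log2 ratios of 1.95 to 3.68 in macrophages at dpi2, 1.37 to 1.81 at dpi4, 1.31 to 1.95 in monocytes and 1.22 to 1.68 in neutrophils. *Clec12a* kept a ratio under 1 in the same comparisons under each setting. With each neutrophil cluster of resolution 2 taken by itself, chosen after seeing the data, 4 and 3 members passed, and *Clec4a1* passed in neither. Dendritic cell results depended on the clustering, because the large *Cd209a* cluster lost its name with a mitochondrial limit of 20%, at least 200 genes per cell, or the listed genes allowed among the variable genes, and in both dpi2 libraries with each library clustered by itself. Under the first 3 the *Clec4e* log2 ratio at dpi4 reversed to 2.82, 1.90 and 2.499, and that of *Clec4d* between time points in the control to 0.60 with at least 200 genes, 0.52 with listed genes allowed and 1.66 with each library clustered by itself.

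Counts of members past the size rule were 2 and 1 in macrophages (dpi2, dpi4), 1 in monocytes, 4 in neutrophils, 1 and 1 in dendritic cells, and between time points 4 (control) and 2 (labelled KO) in macrophages and 1 and 3 in dendritic cells. With a fold of 1.5, which 5.73% to 35.6% of all genes passed, they became 7, 2, 4, 7, 3 (dendritic cells, dpi2), 7, 6, 6 and 6 in that order, the count for dendritic cells at dpi4 staying within 1.5 times. In dendritic cells, at dpi2, at dpi4, and between time points in the control and labelled KO, counts became 3, 2, 3 and 6 with at least 200 genes and 8, 2, 8 and 5 with each library clustered by itself. At dpi2, at dpi4 and in the control between time points they became 4, 2 and 0 with listed genes allowed and 4, 4 and 0 with the 20% limit. At dpi2 the count became 3 with TMM, 0 without doublet removal and 4 at resolution 2, which also gave 0 between time points in the control. At dpi4 the mean over cells gave 0. In macrophages the count became 1 at dpi2 when monocytes were pooled with them, and 2 between time points in the control at resolution 2. With the shallow unnamed cluster joined to the neutrophils, an alternative chosen after seeing the data, the neutrophil count became 7. Except where fewer or other cells entered by construction, the cause was not tested.

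Leaving out a replicate was not possible with 1 library per group. No paired analysis was possible because each group held 1 library. Depth limited *Clec10a* in neutrophils, *Clec5a* in dendritic cells, and all members in monocytes and neutrophils at dpi4, where each library held 35 to 128 cells. Shares thinned to 1000 UMIs or not thinned changed in level by more than their intervals in 115 and 119 of 144 values.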
